A study of Mus musculus with 2 samples.

Results

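Nonclassical monocytes were examined in the lungs of *Pclaf* WT mice and of mice with the *Pclaf* KO allele, 1 week after bleomycin, in 2 single-cell RNA libraries, 1 per genotype. A cell was selected when it held at least 1 UMI (unique molecular identifier, a tag that counts each captured RNA molecule once) of *Tyrobp* or *Fcer1g*, signalling adaptors of myeloid cells. It also had to show at least 2 of the 6 markers *Treml4*, *Ace*, *Eno3*, *Cd300ld*, *Fabp4* and *Nr4a1*, with *Treml4* or *Ace* among them. No UMI was allowed of *C1qa*, *Marco*, *Ly6c2*, *Retnlg*, *Cd3e*, *Cd79a* or *Cdh5*, which mark other macrophages, classical monocytes, neutrophils, lymphocytes and endothelium. Cells entered with between 200 and 5000 genes detected, both ends left out, and a mitochondrial share of UMIs below 20%. The rule selected 631 of 45824 cells. They were 590 of 30187 cells in *Pclaf* WT and 41 of 15637 in *Pclaf* KO.

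The mice were 8 to 10 weeks old and both genotypes received bleomycin, a drug that injures the lung epithelium, with a dose of 1.35 U/kg in the series' design text. The KO mice came from an earlier model whose allele is not described in the sources used here. How many animals were pooled per library was not given in the sources used here, and untreated lungs were not analysed here. No test was run, since a single library stands for each genotype. Every interval below covers counting error only, and genotype and library cannot be told apart. The libraries also differed in sex-linked RNA, as given at the end, and the part of sex in the KO over WT ratios was not tested.

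Nonclassical monocytes are the blood monocytes that patrol the inner surface of small vessels, including those of the lung. They arise from classical Ly6C-high monocytes with the help of the nuclear receptor NR4A1 and the factor C/EBPβ, and depend on CSF1R signals and on the survival factor BCL2. They are known for crawling with the integrin LFA-1, for the chemokine receptor CX3CR1 and for the Fc receptor FcγRIV. In the mouse they lack Ly6C.

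The upstream bases of 3 genes that set these cells apart are shown, since the factor PU.1 is needed for monocyte genes and its site can be looked for in them. They are the rule genes *Treml4* and *Cd300ld* and the Fc receptor gene *Fcgr4*, which the rule did not use. Each run is the 250 bases before the RefSeq gene start, read on the strand of the gene, in GRCm38.p6. The windows lie at chr17:48264045-48264294 on the plus strand for *Treml4*, at chr11:114989887-114990136 on the minus strand for *Cd300ld* and at chr1:171018676-171018925 on the plus strand for *Fcgr4*. Capitals mark a match to GAGGAAGT, an ETS site of the PU.1 kind, on either strand.
Treml4: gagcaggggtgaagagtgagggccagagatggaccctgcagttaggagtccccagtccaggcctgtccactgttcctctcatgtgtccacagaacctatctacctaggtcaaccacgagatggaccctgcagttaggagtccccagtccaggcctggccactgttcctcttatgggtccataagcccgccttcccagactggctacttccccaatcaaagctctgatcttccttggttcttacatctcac
Cd300ld: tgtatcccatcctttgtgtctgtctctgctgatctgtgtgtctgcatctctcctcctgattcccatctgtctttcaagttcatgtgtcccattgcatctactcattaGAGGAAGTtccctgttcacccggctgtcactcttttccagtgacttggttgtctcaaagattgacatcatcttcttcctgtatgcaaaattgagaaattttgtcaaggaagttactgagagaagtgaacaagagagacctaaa
Fcgr4: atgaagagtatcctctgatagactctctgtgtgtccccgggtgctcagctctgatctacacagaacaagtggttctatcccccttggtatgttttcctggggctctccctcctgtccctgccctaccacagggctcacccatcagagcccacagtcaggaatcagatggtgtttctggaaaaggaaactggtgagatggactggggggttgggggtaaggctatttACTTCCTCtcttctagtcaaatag
The letters matched in *Cd300ld*, starting at base -143 from the gene start, and in *Fcgr4*, at base -24 and on the opposite strand, and they are absent from the *Treml4* window. Of 26 rule and identity genes looked for, 21 had RefSeq windows, 23 in all, and 2 of these 23 held the letters, against 2.44% of 32851 windows of the same length. The letters AAAGGTCA of the NR4A response element are in 1.34% of all windows, TTGCGCAA of C/EBP in 0.164% and ATTTGCAT of POU factors in 1.60%, and none of the 3 was in the 23 windows.

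The libraries stood apart before any monocyte was selected. Both are labelled as epithelial cells sorted for EPCAM and against CD31 and CD45. *Epcam* was detected in 5.83% of kept WT cells and 46.8% of kept KO cells, and *Ptprc*, the gene of CD45, in 39.6% and 3.30%. The surfactant gene *Sftpc* made up 6092 CPM (UMIs per 1000000) of the kept WT cells and 86730 CPM of the kept KO cells. Of UMIs there were 98171818 in the WT matrix, on 30669 barcodes, and 111267567 in the KO matrix, on 17172, where the labels give 16000 loaded cells per group. Only 163 barcodes occur in both, and no barcode was a nonclassical monocyte in both. A sort against CD45 would remove monocytes, and its part in the shares below was not tested.

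Nonclassical monocytes made up 1.95% of kept WT cells (95% Clopper-Pearson interval 1.80 to 2.12) and 0.262% of kept KO cells (0.188 to 0.356). Set against classical monocytes of the same library, which carry CD45 as well, there were 590 to 315 in WT and 41 to 40 in KO. That is 187 and 102.5 nonclassical per 100 classical monocytes. As a share of both kinds, nonclassical monocytes were 65.2% in WT (62.0 to 68.3) and 50.6% in KO (39.3 to 61.9). These values depend on the gate: with at least 3 markers there were 119 per 100 classical monocytes in WT and 65 in KO, and a difference between the single libraries could not be tested. Classical monocytes were cells with *Tyrobp* or *Fcer1g*, *Ly6c2* and at least 1 of *Ccr2*, *F13a1*, *Vcan* and *Chil3*, with none of *C1qa*, *Marco*, *Retnlg*, *Cd3e*, *Cd79a*, *Cdh5*, *Treml4* and *Ace*. The nonclassical monocytes had a median of 2580 UMIs in WT, from 508 to 21486, and 4184 in KO, against 2127 and 5957 over all kept cells. Their median mitochondrial share was 3.68% and 3.71%. The doublet caller Scrublet marked 43 of the 590 WT cells and 1 of the 41 KO cells; it marked 8.75% and 2.70% of all kept cells, where 24.1% and 12.5% would follow from the number of cells.

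The rule fixed the levels of its own genes, which are given as a description. *Ace*, the angiotensin-converting enzyme, was at 428 CPM in nonclassical monocytes of WT and at 221 CPM in those of KO. *Treml4*, a TREM-like receptor, was at 202 CPM and 164 CPM. *Eno3*, the enolase of muscle, was at 119 CPM in WT cells, against 2.23 CPM in WT classical monocytes, and *Cd300ld*, an activating receptor of the CD300 family, at 157 CPM and 18.6 CPM. The remaining rule genes were less particular to these cells. *Fabp4*, a fatty acid carrier, was at 180 CPM in WT nonclassical monocytes and at 381 CPM in the 294 alveolar macrophages chosen by *Marco*. *Nr4a1* was at 682 CPM against 428 CPM in classical monocytes. The 859 T cells of the WT library, chosen by *Cd3e* with *Cd3d* or *Cd3g*, had 10.8 CPM of *Treml4* and 32.1 CPM of *Ace*, which bounds the free RNA of these genes. Unthinned, *Treml4* was detected in 50.5% of WT nonclassical monocytes and 2.10% of T cells, and *Ace* in 82.5% and 8.03%.

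Most of the cells rested on few markers. In WT, 216 of the 590 showed exactly 2 of the 6, 185 showed 3, 112 showed 4, 60 showed 5 and 17 all 6. In KO the numbers were 15, 9, 9, 7 and 1. *Treml4* was detected in 298 WT cells and 25 KO cells. A list of 20 other genes known for nonclassical monocytes, which the rule did not use, was set beside the label. The list was chosen with earlier results of these data known, so it is not an independent check. Its summed level in WT was 4266 CPM in cells with 2 markers, 8499 CPM with 3, 10343 CPM with 4, 12162 CPM with 5 and 12710 CPM with 6. In KO it was 3029, 3746, 8595, 12862 and 11556 CPM in the same order. The list was higher with each further marker in WT, and cells with 2 markers lay below all others in both libraries.

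**Figure D1:**
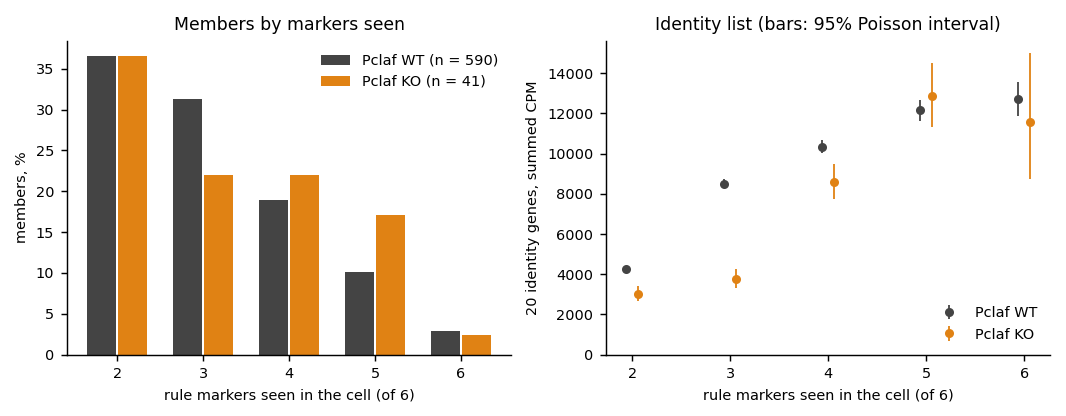
Left, share of nonclassical monocytes (%) by how many of the 6 rule markers were seen, *Pclaf* WT (590 cells) and *Pclaf* KO (41 cells). Right, summed CPM of the 20 identity genes in the same cells with 95% Poisson intervals: WT cells went from 4266 CPM with 2 markers to 12710 CPM with 6.

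Weakly labelled were the cells whose only markers were *Ace* and *Nr4a1*, 116 of 590 in WT and 7 of 41 in KO. Their identity list summed to 3593 CPM in WT, against 8914 CPM in the other 474 cells. They also carried more fibroblast RNA, with 5521 CPM of 5 fibroblast genes in 48 of the 116 cells, against 1042 CPM in 81 of the 474, and 4806 and 913 CPM without the highest cell of each. *Spp1* (osteopontin) was at 5842 CPM against 872 CPM, but 1 cell held 2812 of its 2987 UMIs, and without the highest cell of each set it was at 357 and 538 CPM. Just inside the threshold, the 216 WT cells with 2 markers had 4266 CPM of the identity list. Just outside it, the 306 WT cells with *Treml4* or *Ace* alone had 2485 CPM and the 238 with 2 or more markers but neither of these 2 had 5278 CPM. A further 236 WT cells that passed on markers were left out for a single UMI of an absent gene, and had 6128 CPM. For 2 or more such UMIs, 1270 WT cells were left out, with 4422 CPM. In KO these numbers were 8 and 16, beside the 41 selected cells, so the absent genes removed a larger part in WT. *Cdh5* removed the most, being present in 961 WT cells that otherwise passed and the sole reason in 442. Alveolar macrophages were the gate most like them, with 5313 CPM of the identity list in WT, above the cells with 2 markers, and 4532 CPM in KO, above the 15 cells with 2 and the 9 with 3 markers, against 7601 and 5382 CPM over all nonclassical monocytes. They had 0 UMIs of the identity genes *Adgre4* and *Cx3cr1* in KO. The label thus rests on a summed level above those of the 4 comparison gates, by little in KO. It was weaker for cells with *Ace* and *Nr4a1* only than for the other members.

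Genes known for nonclassical monocytes were higher than in classical monocytes of the same library, while the adhesion list and the list of Fc, complement and scavenger receptors held genes both higher and lower. The Fc receptor gene *Fcgr4*, the adhesion receptor *Adgre4*, the phosphatase *Dusp16*, the ribonuclease *Ear2* and the fatty acid receptor *Cd36* were the identity genes furthest above classical monocytes in WT after the ion carrier *Slc12a2*, and *Ms4a4c* and fibronectin were lower. Both groups were cut by measured genes, so these are descriptions of 590 and 315 cells. A gene was called past 2-fold by size alone, among genes with at least 20 UMIs over both groups. In WT, 1156 of 10345 genes (11.2%) were past 2-fold higher in nonclassical monocytes and 455 (4.4%) past 2-fold lower, with a median log2 ratio of 0.08 over all of them. In KO, with 41 and 40 cells, 8.69% of 4190 genes were past 2-fold higher and 6.49% lower. The list counts that follow are to be read against these shares.

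Of the 20 identity genes, 14 were past 2-fold higher in WT and 0 lower, with a median log2 ratio of 1.63 and all 20 above 0. In KO, 19 had enough UMIs, 12 were past 2-fold higher and 0 lower, and the median was 1.34. *Slc12a2*, a sodium-potassium-chloride carrier, was at 195 CPM against 20.1 CPM in WT (log2 ratio 3.28, 95% interval 2.72 to 3.90), but at 204 CPM against 138 CPM in KO. *Fcgr4* was at 143 CPM against 16.4 CPM in WT (3.13, 2.50 to 3.82) and 62.0 CPM against 12.3 CPM in KO. *Adgre4* was at 447 CPM against 57.3 CPM in WT and 328 CPM against 33.7 CPM in KO. *Adgre4* was lower still in other gates, with 7.54 CPM in WT alveolar macrophages and 14.5 CPM in WT T cells. *Ear2* was highest in alveolar macrophages among these gates in WT, with 932 CPM against 426 CPM in WT nonclassical and 66.2 CPM in WT classical monocytes.

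Adhesion genes were divided in direction. *Itgal*, the alpha chain of LFA-1, was at 661 CPM in WT nonclassical and 193 CPM in WT classical monocytes (log2 ratio 1.78, 1.59 to 1.97), and at 319 and 126 CPM in KO. *Spn* (CD43) had a log2 ratio of 1.65 and *S1pr5*, a sphingosine phosphate receptor for leaving tissue, of 2.10. In all, 3 of 17 measured adhesion genes were past 2-fold higher and 2 lower, with a median of 0.31. The fractalkine receptor *Cx3cr1* was close in the 2 kinds, at 198 and 150 CPM (0.40, 0.16 to 0.65). *Csf1r* was close as well, at 302 and 221 CPM.

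Among 18 transcription factors, 3 were past 2-fold higher and 1 lower in WT, with a list median of -0.10. Over all genes 11.2% were higher and 4.4% lower, so these few genes do not set the list apart. *Hes1*, a Notch target, was at 174 CPM against 32.0 CPM in WT (log2 ratio 2.45, 1.99 to 2.94), *Pou2f2* (OCT2) had a log2 ratio of 1.95 and *Tcf7l2*, a factor of the Wnt pathway, of 1.41. *Cebpb* was at 1211 CPM against 854 CPM (0.50, 0.40 to 0.61) and *Klf4* at 287 CPM against 205 CPM. In KO the ratio of *Hes1* was 0.24, with 120 CPM in nonclassical and 101 CPM in classical monocytes, so its size in WT was not seen there. Of 11 survival genes, 3 were past 2-fold higher and 0 lower, led by *Bcl2* at 284 CPM against 96.7 CPM (1.56, 1.28 to 1.84). *Bcl2a1a* and *Bcl2a1d*, with 1.29 and 1.15, are near-identical copies whose reads the counting could split.

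Lipid genes were higher in part. *Pparg*, a nuclear receptor for fatty acids, was at 281 CPM against 49.1 CPM in WT (log2 ratio 2.52, 2.15 to 2.91) and at 190 CPM against 30.7 CPM in KO. *Nr1h3* (LXRα) and *Lpl*, the lipase of lipoprotein uptake, followed with 1.87 and 1.13, and 3 of 10 measured lipid genes were past 2-fold higher with 0 lower. Of 13 Fc, complement and scavenger receptors, *Fcgr4*, *Cd36* and *Mertk*, a receptor for dying cells, were past 2-fold higher, and *C3ar1*, *Msr1*, *Fcgr1* and *Fcgr3* lower. *Fcgr4* therefore went against the other activating Fc receptor genes, *Fcgr1* with a log2 ratio of -1.25 and *Fcgr3* with -1.04.

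Some interferon genes, several chemokines of the CCL kind and lysozyme were lower in nonclassical monocytes. Of 16 interferon-stimulated genes, 0 were past 2-fold higher and *Isg15*, *Irf7*, *Bst2* and *Ifit3* lower, with a list median of -0.57. *Ccl2* had a log2 ratio of -2.41, *Ccl4* of -1.87 and *Ccl9* of -1.61, while *Il1a*, *Tnf* and *Cxcl2* were past 2-fold higher with 1.38, 1.08 and 1.15. *Il1b* was level, at 621 and 610 CPM. Of 12 lysosomal genes, only *Lyz2* was past 2-fold, at 6975 CPM against 15410 CPM in WT (-1.14), although it was detected in 95.6% and 87.9% of the cells. None of 8 classical genes outside the gates was higher and 3, with *Ms4a4c* and *Fn1* among them, were past 2-fold lower, with a median of -0.71. Of 13 repair genes, *Pdgfb*, *Igf1* and *Areg* were past 2-fold higher, with 1.71, 2.46 and 1.45, and 3 were lower, with *Mmp12* and *Trem2* among them. Of 12 immediate early genes, *Egr1* alone was past 2-fold, with 1.87, and the median was 0.01. None of 7 MHC class II genes was past 2-fold in WT (median 0.40), where 5 of 7 were higher in KO (1.32). Of 12 cell cycle genes, 0 were past 2-fold higher and 2 lower (-0.11).

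**Figure D2:**
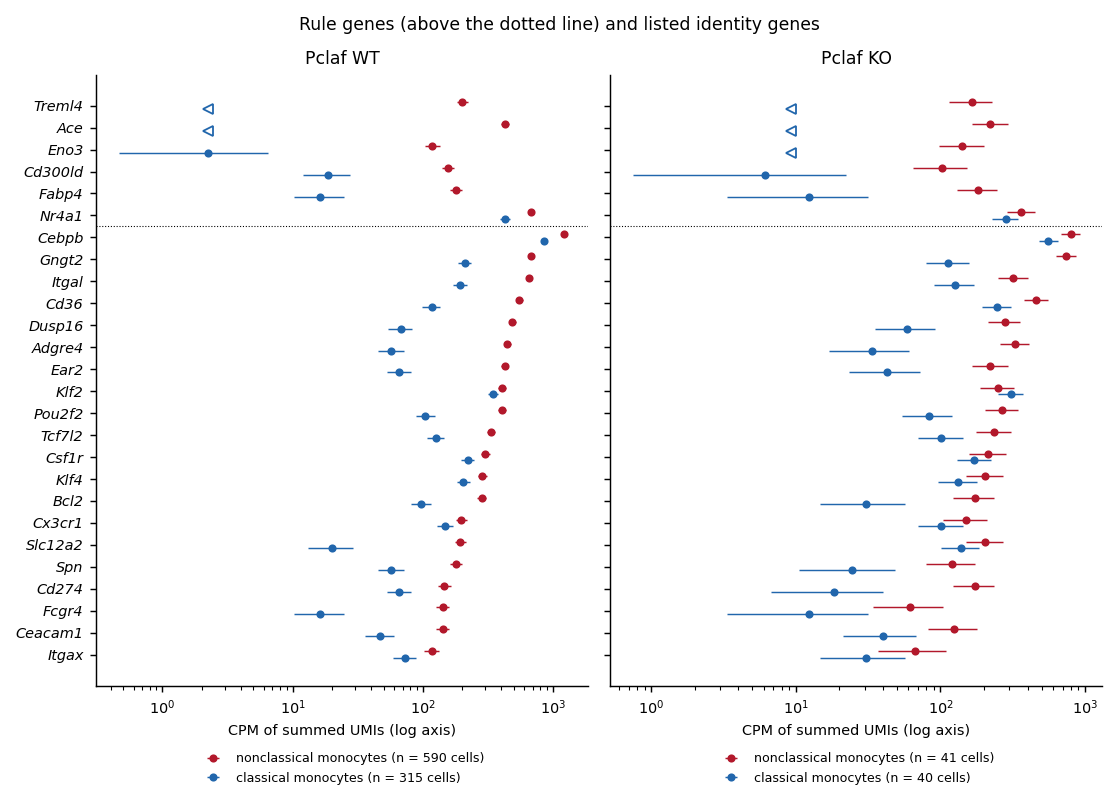
CPM (log axis, 95% Poisson intervals) of the rule genes, above the dotted line, and of 20 identity genes below it, in nonclassical and classical monocytes of *Pclaf* WT (590 and 315 cells) and *Pclaf* KO (41 and 40 cells). Open triangles are genes with 0 UMIs, drawn at the floor of 3 counts; in WT all 20 identity genes were higher in nonclassical monocytes, *Adgre4* at 447 against 57.3 CPM.

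A sum of UMIs can rest on a few cells, so the share of cells with a UMI was also compared after each cell was thinned to 500 UMIs, which left no cell out. By this measure the leading genes in WT were *Cd36*, in 27.1% of nonclassical and 3.81% of classical monocytes, *Gngt2*, a G protein subunit, in 33.4% and 10.2%, and *Dusp16* in 24.7% and 2.86%. T cells had 3.26%, 3.03% and 1.86%. Unthinned, *Cd36* was in 60.3% of nonclassical and 20.3% of classical monocytes and 14.7% of T cells, *Gngt2* in 75.6%, 41.9% and 14.7%, and *Dusp16* in 58.3%, 20% and 11.5%. These genes were picked for a large difference in share, so they cannot show whether other differences rest on few cells. The next genes in order were *Rap1gap2* in 30.5% and 10.5% (unthinned 62.2% and 41.9%), *Adgre4* in 23.9% and 4.13% (58.8% and 18.4%), *Nedd9* in 30% and 10.5% (72.0% and 61.3%), *Itgal* in 32.2% and 12.7% (74.9% and 47.3%) and *Rap1b* in 39.3% and 20.3% (85.8% and 77.5%). On the other side, *Fn1* was in 7.97% of nonclassical and 33.0% of classical monocytes (unthinned 21.2% and 58.7%) and *Wfdc17*, a secreted protease inhibitor, in 7.46% and 30.2% (26.9% and 68.9%), against 2.79% and 2.10% of T cells at 500 UMIs. *Lgals1*, galectin-1, was in 11.2% and 28.6%, and in 20.8% of T cells, which carry the gene themselves. The ribosomal protein gene *Rpl28* was lower too, in 49.5% and 67.3% (unthinned 89.8% and 96.5%). In WT the median nonclassical cell had 4 of the 20 identity genes at 500 UMIs, against 1 in classical monocytes, C1q macrophages and T cells and 2 in alveolar macrophages. In KO it had 2, as many as in alveolar macrophages, against 1 in classical monocytes. The genes named in these shares were ordered by the difference in share after the values were seen. In KO, the share was 34.1% and 2.5% for *Adgre4* and 36.6% and 5% for *Gngt2*.

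**Figure D3:**
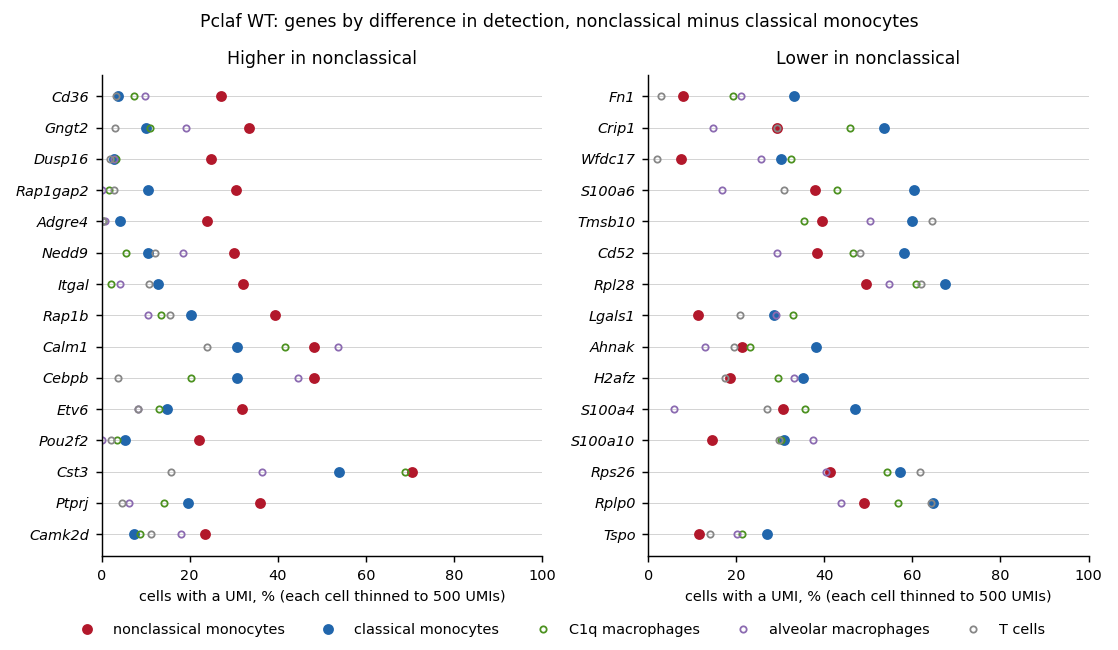
Share of *Pclaf* WT cells with a UMI (%, each cell thinned to 500 UMIs) of the 15 genes most above (left) and most below (right) in nonclassical minus classical monocytes; open circles are C1q macrophages, alveolar macrophages and T cells. *Cd36* was in 27.1% of nonclassical and 3.81% of classical monocytes, and *Fn1* in 7.97% and 33.0%.

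The largest ratios by UMIs were of 2 kinds. *Cd300e*, a receptor of the CD300 family, had 180 UMIs spread over 130 of the 590 WT nonclassical cells and 0 in classical monocytes, at least 38.9-fold higher against a floor of 3 counts over the group. *Vegfc*, a growth factor for lymphatic vessels, had 106 UMIs in 78 cells against 2 UMIs. *Dnah12*, an axonemal dynein, had 127 UMIs in 74 cells against 2. These 3 were spread over many cells. By contrast, *Scgb3a1* had 98.8% of its 256 UMIs in 10 cells, *Cxcl13* had 131 of 138 UMIs in 1 cell and *Krt15* was in 2 cells. *Col14a1*, *Lum*, *Bnc2* and *Wnt5a*, genes of fibroblasts, were also among the 15 highest, with *Mamdc2*, *C1s1*, *Csmd1*, *Adam23* and *Lypd2*. The 10 lowest were granule genes of neutrophil precursors or genes of plasmacytoid and other dendritic cells, seen in the classical gate. *Camp* was at least 807-fold lower, *Elane* at least 225-fold and *Mpo* at least 154-fold, but the 1571 *Camp* UMIs came from 10 classical cells. *Ctsg*, *Fcnb*, *Ngp*, *Prtn3*, *Ltf*, *Siglech* and *Cd209d* completed them.

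RNA of other cell types differed between the 2 kinds of monocyte. All 5 fibroblast genes were past 2-fold higher in WT nonclassical monocytes, summing to 2147 CPM against 139 CPM, with *Col3a1* at 913 CPM and in 8.81% of cells at 500 UMIs (unthinned 13.4%) against 2.91% of T cells. Endothelial genes summed to 313 CPM against 174 CPM, with *Calcrl* the most abundant, and 3 of 5 were past 2-fold higher; *Cdh5* was at 0 by the rule. Epithelial genes summed to 12235 and 10671 CPM, led by *Scgb1a1* and *Sftpc*. All 4 markers of alveolar macrophages were past 2-fold higher in WT nonclassical monocytes, with a median log2 ratio of 2.45. They summed to 226 CPM against 84.1 CPM, led by *Atp6v0d2*, where alveolar macrophages themselves had 1586 CPM. *Pparg* and *Ear2*, higher in nonclassical than in classical monocytes, were higher still in alveolar macrophages, *Pparg* with 356 CPM. Neutrophil genes summed to 407 CPM against 8889 CPM, natural killer cell genes to 52.6 CPM against 826 CPM, red cell genes to 210 CPM against 1607 CPM and genes of T cells to 89.7 CPM against 142 CPM. The part of such RNA in the comparisons above was not tested. B cell genes summed to 109 and 195 CPM, platelet genes to 29.0 and 35.7 CPM, dendritic cell genes to 117 and 225 CPM and C1q macrophage genes to 1542 and 1808 CPM, nearly all of it *Apoe*.

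Within the 590 WT cells, the genes that varied most beyond counting noise included RNA of other cell types, myeloid genes and genes that most cells carry. The Fano factor, the variance over the mean of UMIs per cell at 500 UMIs, had a median of 1.05 over 1652 genes seen in at least 5% of cells. It was 165 for the club cell gene *Scgb1a1*, 44.6 for *Sftpc*, 31.0 for *Spp1*, 23.3 for *Mgp* and 7.05 for *Col3a1*. Of the 20116 *Scgb1a1* UMIs, 9197 were in 1 cell, and of 4348 *Spp1* UMIs 2812 were in 1 cell. *Mgp* made up 1% or more of the UMIs in 39 cells. The myeloid genes *Il1b* and *Lyz2* had 5.32 and 5.20. *Fth1* (7.97) and *Gm42418* (4.53) were also in 61.1% and 99.9% of T cells at 500 UMIs, and *Gsn* (4.68) had 42.4% of its UMIs in 10 cells. *Il1b*, the cytokine IL-1β, was in 18.3% of cells at 500 UMIs (unthinned 42.4%) and 1.05% of T cells.

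Most MHC class II UMIs lay in a minority of the cells. *H2-Aa*, *H2-Ab1* and *H2-Eb1* together were at 0 UMIs in 260 of 590 WT cells, 44.1%, while 55 cells with 1% or more of their UMIs in them held 79.6% of these UMIs. Without the 55 cells the summed level went from 3608 to 867 CPM. These cells were weakly labelled: 31 of the 55 had only 2 rule markers, against 185 of the other 535, and the identity list made up a median of 0.227% of their UMIs, against 1.05%. Dendritic cell genes summed to 209 CPM in all WT cells with 2 markers, against 56.0 CPM with 3 or more. They were not summed for the 55 cells alone. Classical monocytes looked alike in MHC class II, with 7.62% of cells at 1% or more, and in KO 2 of 41 nonclassical cells reached it. In the 1977 WT C1q macrophages, cells with at least 2 of the 3 C1q genes, 45.2% did.

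*Pclaf*, the targeted gene, followed the genotype labels in most gates but not in all. It was at 39.3 CPM in all kept WT cells and 5.19 CPM in all kept KO cells, which differ in cell makeup. In nonclassical monocytes it had 87 UMIs in WT, 42.0 CPM in 3.39% of cells, and 0 UMIs in KO, at least 3.16-fold lower. The gene was not at 0 in the KO library, which held 529 UMIs of it. In KO classical monocytes it had 20 UMIs, all in 1 cell, or 61.3 CPM (95% Poisson interval 37.5 to 94.7), above the 43.1 CPM of WT classical monocytes. T cells of WT had 60.8 CPM and those of KO 35.3 CPM, and alveolar macrophages had 103 CPM in WT with 0 UMIs in KO. Whether the 3′ end counted here lies inside the deleted part was not given in the sources used here.

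Between the genotypes, the 41 KO cells differed from the 590 WT cells first of all in epithelial RNA. Every KO cell held a *Sftpc* UMI, against 33.2% of WT cells, and *Sftpc* was at 57957 CPM against 1935 CPM. It came mostly from 10 KO cells with 1% or more *Sftpc* UMIs, 24.4% of the 41, which held 42.8% of the UMIs and 98.3% of the *Sftpc* UMIs. In WT, 10 of the 590 cells reached 1%. The 10 KO cells had a median of 9638 UMIs against 3677 in the others. Scrublet marked 1 of these 10 KO cells and 4 of the 10 WT cells. The comparisons below are therefore given for all cells and then for the 580 WT and 31 KO cells under 1%, a limit set after the values were seen. *Sftpc* was at 198 and 1702 CPM in these. Epithelial RNA was higher in KO in the 4 comparison gates as well. Epithelial genes summed to 105816 CPM in KO against 10671 CPM in WT in classical monocytes and 117367 against 8025 CPM in C1q macrophages. They summed to 35936 against 2106 CPM in alveolar macrophages and 11454 against 1079 CPM in T cells.

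**Figure D4:**
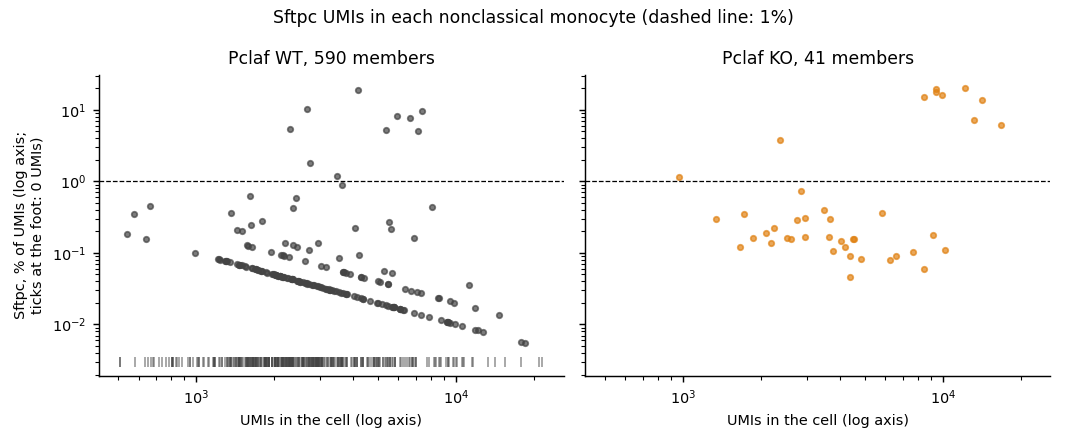
*Sftpc* share of UMIs (%, log axis) against UMIs per cell (log axis) for each nonclassical monocyte of *Pclaf* WT (590 cells) and *Pclaf* KO (41 cells); ticks at the foot are cells with 0 *Sftpc* UMIs and the dashed line is 1%. In each library 10 cells lie at or above the line, and all 41 KO cells held at least 1 *Sftpc* UMI.

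Over all cells, 668 of 9394 genes (7.11%) were past 2-fold higher in KO and 1908 (20.3%) past 2-fold lower, with a median log2 ratio, KO over WT, of -0.26. TMM scaling moved every ratio up by 0.22 and gave 941 higher and 1454 lower. Under 1% *Sftpc*, 581 of 9125 genes (6.37%) were higher and 2023 (22.2%) lower, with a median of -0.22. The KO sums rest on 225755 UMIs and then 129228, against 2072463 and 2024648 in WT, so a gene of few UMIs can pass 2-fold by counting error alone. List counts are read against these shares.

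The identity genes were close in the genotypes once the *Sftpc*-rich cells were left out. Of the 20 identity genes, 0 were past 2-fold higher in KO and 2 lower over all cells, with a median of -0.55, which moved to -0.12 under 1% *Sftpc* with 1 higher and 2 lower. The same list had a median of -0.59 in classical monocytes and -0.62 in T cells, KO over WT, so a value under 0 was not particular to nonclassical monocytes. *Adgre4* went from -0.45 to 0.01 (95% interval -0.39 to 0.39) and *Pou2f2* from -0.61 to 0.02. The integrin *Itgal* stayed lower in KO, with 319 CPM against 661 CPM over all cells (-1.05, -1.41 to -0.71) and -0.67 (-1.09 to -0.28) under 1%. *Cd36* was level over all cells (-0.26) and past 2-fold lower in KO without the *Sftpc*-rich cells (-1.16, -1.73 to -0.65). *Gngt2* was the opposite, with 0.12 and 0.64, and *Cd274*, the gene of PD-L1, with 0.24 and 1.01 (0.49 to 1.50).

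Single genes of several lists were lower in KO in both readings. *Cxcl2*, a neutrophil chemokine, was at 184 CPM in WT cells and 17.7 CPM, 4 UMIs, in KO cells (log2 ratio -3.38 over all cells, -2.59 under 1%). *Egr1* was at 210 and 62.0 CPM (-1.76, then -2.46), although the ratio was -0.31 in cells with 3 or more markers, and *Ier3*, another immediate early gene, had 1 UMI in KO against 91.2 CPM in WT, and 0 UMIs under 1%. *Cxcr4*, a chemokine receptor, was at 194 and 48.7 CPM (-1.99, then -1.32), and *Nr4a3*, a relative of *Nr4a1*, at 99.9 and 26.6 CPM, with 1 UMI left in KO under 1%. Their lists were less uniform. Over all cells, 4 of 12 immediate early genes were past 2-fold lower in KO and 0 higher, with a median of -0.57; under 1% these were 3 and 0, with -0.16. For cytokines and chemokines the numbers were 4 and 0 of 15 (median -0.49), then 3 lower and 2 higher (-0.31, or 0 with genes at 0 in KO set to their bound), against 22.2% of all genes lower. The 2 higher were *Ccl3* and *Ccl4*, with 1.03 and 1.05 under 1%, seen in 5 and 3 of the 41 KO cells. *Il1b* was at 621 and 434 CPM, with -0.52 and then 0.21. KO over WT, immediate early genes had medians of 0.27 in T cells and -0.31 in classical monocytes. Cytokines and chemokines had -1.50 and -0.51 there, so a lower list was not particular to nonclassical monocytes.

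*Spp1* was at 2098 CPM in WT cells and 182 CPM in KO cells (-3.53, -4.01 to -3.09, then -3.42), but a single WT cell held 2812 of the 4348 UMIs, and 129 of 590 WT cells and 8 of 41 KO cells had it. *Mertk* was at 139 and 13.3 CPM (-3.39, then -3.21) with 3 UMIs in KO, *Mrc1* at 126 and 48.7 CPM (-1.37, but 1.20 with the limits read as UMIs) and *Lpl* at 352 and 111 CPM (-1.67, then -1.62). Of 13 repair genes, 6 were past 2-fold lower and 1 higher in both readings, with a median of -0.89 and then -0.55. Set to their bound, genes at 0 in KO moved these medians to -0.51 and 0. *Gpnmb* was the one higher, at 61.3 and 124 CPM (1.02, then 1.79, and -0.01 with the limits read as UMIs). KO over WT, the repair list had a median of -1.68 in T cells and 0.04 in classical monocytes.

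Some listed genes were higher in KO in both readings. *Fabp5*, a fatty acid carrier, was at 449 and 1059 CPM (1.24, 1.03 to 1.44, then 1.45), but the direction turned, to -1.21, in the 474 WT and 26 KO cells found when the limits of 200 and 5000 were read as UMIs. *Ccr7*, a homing receptor that is also on the dendritic cell list, had 8 UMIs in KO (1.74, then 2.51). Only 3 of the 41 KO cells held a UMI of that list, which was at 0 CPM in KO cells with *Treml4*. For other genes higher in KO the difference was smaller without the *Sftpc*-rich cells. *Npc2*, a cholesterol carrier that alveolar type 2 cells also make, went from 1.64 to 0.40, and *Lyz2* from 0.91 to 0.18. The 5 highest ratios over all cells were *Gm20629*, *Irx1*, *Hc*, *Acoxl* and *S100g*, and *Hc* was at 722 CPM in KO against 16.9 CPM in WT. Under 1% *Hc* had 2 UMIs left in KO, 15.5 CPM against 3.95 CPM, *Acoxl* 1 and *Gm20629* and *Irx1* 0, so these ratios rested on the *Sftpc*-rich cells, and *S100g* had 8 UMIs in each library (3.97, 2.36 to 5.58). Interferon-stimulated genes had a median of -0.15 over all cells (-0.07 with bounds) and 0.39 under 1%, where 4 of 14 were past 2-fold higher and 1 lower, among them *Oasl2* (1.20, 0.08 to 2.17), and *Ifi27l2a* had 0.91 (0.62 to 1.19). MHC class II went from -0.22 to -0.53, with *H2-Ab1* at -0.72 and then -1.45. This direction depended on the cells richest in this RNA. Over all cells, *H2-Aa*, *H2-Ab1* and *H2-Eb1* summed to 3608 CPM for WT, above the 2711 CPM for KO. Cells with 1% or more of their UMIs in these genes numbered 55 in WT and 2 in KO. Once they were left out, the KO sum of 1660 CPM lay above the WT sum of 867 CPM.

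The lowest ratios were of genes at 0 in KO. *Hhip*, an inhibitor of hedgehog signals, was at 176 CPM in WT in 24 cells and at least 13.3-fold lower in KO, and *Cyr61*, a matrix protein, at least 7.26-fold. *Cxcl13*, *Myh11* and *Tnfaip6* were at least 5.01-, 4.50- and 4.36-fold lower. The KO cells under 1%, being among the 41, had none of these 5 either. In WT, *Cxcl13* had 131 of its 138 UMIs in 1 cell, so its bound rests on that cell. The 10 highest WT cells held 98.4% of the *Myh11* UMIs, 88.2% of *Hhip*, 85% of *Tnfaip6* and 63.5% of *Cyr61*. Cell cycle genes were few in both: 29.7% of the WT cells and 43.9% of the KO cells held a UMI of any of 12 of them, and the median cell held none. Of 9 measured, 7 were past 2-fold lower in KO and 0 higher, with a median of -2.29, or -1.19 with genes at 0 set to their bound. Under 1% the numbers were 8 and 0, with -1.89, or -0.44. In T cells the same list had a median of -1.40, KO over WT, with 8 of 12 past 2-fold lower and 0 higher. A lower list was thus not particular to nonclassical monocytes, while in classical monocytes its median was 0.12. Among nonclassical monocytes *Mki67*, the proliferation marker, had 89 UMIs in WT and 0 in KO, at least 3.23-fold lower. *Top2a* had 2 UMIs in KO (-2.66, then -1.89).

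The other lists lay between these. Medians over all cells, then under 1%, were -0.57 and -0.13 for Fc, complement and scavenger receptors, -0.60 and -0.05 for adhesion, -0.57 and -0.09 for transcription factors, -0.33 and 0.03 for survival, -0.08 and 0.15 for the lysosome, -0.01 and 0.42 for lipid handling and -0.03 and 0.39 for classical genes. Each of these 7 medians was thus higher without the *Sftpc*-rich cells. Past 2-fold, higher and lower, they held 0 and 3, 2 and 3, 1 and 2, 0 and 1, 0 and 0, 2 and 2, and 2 and 1 genes over all cells, in the same order, and under 1% 0 and 3, 2 and 1, 0 and 2, 0 and 0, 0 and 0, 1 and 1, and 3 and 1. The adhesion list had a median, KO over WT, of -1.12 in classical monocytes and -0.67 in T cells. Epithelial genes were higher in KO nonclassical monocytes, with 6 of 7 past 2-fold over all cells and 4 of 7 under 1%. Under 1% the log2 ratio of *Sftpc* had an interval of 2.86 to 3.34. Over all cells the exception was *Scgb1a1*, with -2.10, and under 1% it had -2.70, *Cdh1* -0.71 (-3.02 to 0.89) and *Epcam* -0.20. All 41 KO cells but 244 of 590 WT cells held *Scgb1a1*, 98.1% of its WT UMIs were in 10 cells, and the ratio was 2.67 with the limits read as UMIs.

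**Figure D5:**
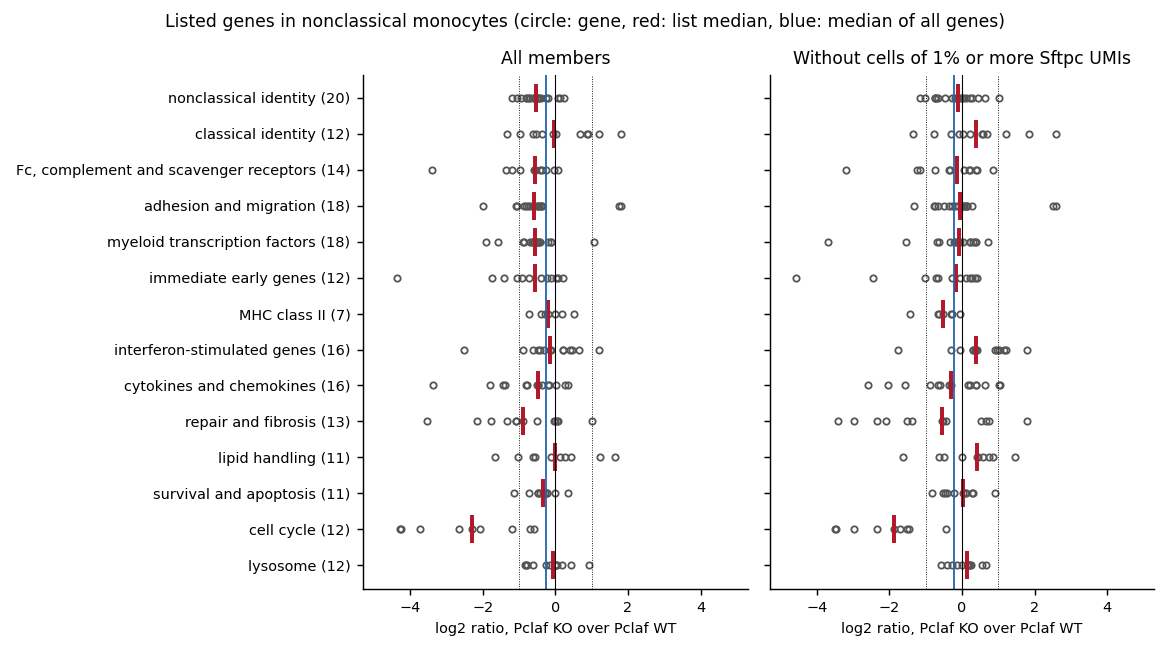
Log2 ratio, *Pclaf* KO over *Pclaf* WT, in nonclassical monocytes for the genes of 14 lists (circles; listed size in brackets), with each list's median in red and the median of all genes in blue, for all cells (left) and without cells of 1% or more *Sftpc* UMIs (right). Genes at 0 in one library were drawn with 0.5 UMIs added to both. The identity list moved from a median of -0.55 to -0.12. As drawn, cell cycle genes had the lowest median in both panels, with -2.29 and -1.89. With genes at 0 set to their bound, the cell cycle median under 1% was -0.44, above the -0.53 of MHC class II.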

How the data were processed

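Lung cells were profiled with 10x 3′ v3.1 chemistry in 1 library per genotype. Per the labels, reads were aligned with Cell Ranger 3.1.0 and STAR to GRCm38 (mm10), while the deposited matrices name Cell Ranger 5.0.0 in their header; the deposited values are raw UMI counts per gene and barcode, which the authors made with Cell Ranger and did not normalize. The study's methods set a minimum of 200 features, limits of 200 and 5000 on RNAs detected and a mitochondrial share under 20%; the limits on RNAs were read here as genes, and as UMIs in an alternative that turned several ratios.

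Counts were summed over the nonclassical monocytes of each library and over 4 comparison gates (classical monocytes, C1q macrophages, alveolar macrophages, T cells), scaled to CPM and given exact 95% Poisson intervals; log2 ratios carry the exact conditional interval. Where one side was 0, 0.5 UMIs were added to both for the ratio, and a bound was computed against a floor of 3 counts over the gate. Ratios needed 20 UMIs over both groups. A gene was called past 2-fold by size only. Cells were thinned to 500 UMIs with seed 1 for shares. Scrublet was run in scanpy 1.11.5 and its doublets were kept. Python 3.11.15, numpy 2.4.6, scipy 1.17.1, pandas 2.3.3, R 4.3.3 and edgeR 4.0.16 (for TMM scaling only) were used, and the ratio step was tested on simulated data.

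The nonclassical monocytes, their rule and the gene lists were chosen with earlier results of these data known. Named genes were the rule genes, the 15 highest and 10 lowest nonclassical over classical ratios in WT with 50 or more UMIs, the 5 highest and 5 lowest KO over WT ratios, the 10 highest Fano factors, the 4 members with most UMIs of each list with any past 2-fold, and *Pclaf*. Values of some listed genes are not reported here. Genes that defined a gate were left out of comparisons with classical monocytes. The alternatives were other limits on cells and markers, minimums of 10 and 50 UMIs per gene, TMM scaling, a denominator without mitochondrial and ribosomal genes, another classical gate and leaving out doublets. Leaving out *Sftpc*-rich cells and cells with *Ace* and *Nr4a1* only was added after seeing the data.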

Additional observations from a re-analysis of the deposited data

Results flagged for a closer look

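For 5 genes the difference between nonclassical and classical monocytes was past 2-fold in both libraries and of opposite direction; the difference between the libraries was not tested. *Cxcl2* had a log2 ratio of 1.15 in *Pclaf* WT and -2.47 in *Pclaf* KO, where nonclassical monocytes held 4 UMIs and classical monocytes 32. *Dnah12* had 5.36 in WT and -1.73 in KO, where 18 of the 24 UMIs in classical monocytes were in 1 cell; without cells of 1% or more *Sftpc* UMIs the KO ratio was -0.50 (95% interval -3.12 to 1.73), no longer past 2-fold. *Kcnq1ot1*, a long non-coding RNA kept in the nucleus, had 1.08 in WT and -1.58 in KO. *Lypd2* had 5.13 and -5.70, from 5 WT nonclassical cells and 4 KO classical cells with a UMI. *Scgb1a1*, the club cell gene, had 1.32 and -4.49, and 10 of the 40 KO classical monocytes held 98.9% of its 16645 UMIs there. In WT, 1 cell held 9197 of its 20116 nonclassical UMIs and 1 cell 4899 of its 5218 classical UMIs.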

How the results depend on the processing

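No paired analysis was possible because each genotype had 1 library. The 20 identity genes kept a median log2 ratio, nonclassical over classical, of 1.50 to 2.15 in WT under all alternatives. The ratio of nonclassical to classical monocytes was sensitive to the gates: per 100 classical monocytes WT held 119 with at least 3 markers, 262 with at most 1 UMI of absent genes, 291 with at least 2 *Ly6c2* UMIs in the classical gate and 150.5 without cells of *Ace* and *Nr4a1* only. The WT share of kept cells was 1.24, 2.37, 2.74, 2.13 and 1.57% with at least 3 markers, at least 500 genes, at most 1 UMI of absent genes, a 10% mitochondrial limit and no cells of *Ace* and *Nr4a1* only, and the KO share 0.166% with at least 3 markers and 0.409% with limits read as UMIs.

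Genes past 2-fold higher in WT nonclassical monocytes were 768 with at least 3 markers and 642 at 50 UMIs per gene (249 lower). For KO over WT, 369 were higher with limits read as UMIs, 1046 at 10 UMIs and 252 at 50 UMIs (976 lower). Nonclassical over classical medians with limits as UMIs were 0.69 for adhesion, -0.36 for immediate early genes and -0.018 for the lysosome, and that of the cell cycle was 0.11 with the stricter classical gate.

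KO over WT medians were less stable, and the cause was not tested. In the order identity, adhesion and transcription factors they were -0.32, -0.38 and -0.35 with TMM scaling, -0.89, -0.83 and -0.83 with no upper limit on genes, -0.19, -0.23 and -0.16 with limits as UMIs and -0.12, -0.054 and -0.091 without *Sftpc*-rich cells. With limits as UMIs, Fc receptors were at 0.34, cytokines at 0.60 and interferon genes at 0.55; without *Sftpc*-rich cells, Fc receptors were at -0.13 and survival at 0.034; with at least 3 markers, adhesion was at -0.88 and classical identity at -0.84.

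These ratios turned direction. KO over WT with limits as UMIs were 0.43 for *Chil3*, -1.21 for *Fabp5*, -0.0077 for *Gpnmb*, 1.20 for *Mrc1* and 2.67 for *Scgb1a1*; with no upper limit on genes *Lum* was 0.26 and *Mrc1* 0.022; with at most 1 UMI of absent genes *Mamdc2* was 0.70, and without *Sftpc*-rich cells *Epcam* was -0.20. Nonclassical over classical, *Hhip* in WT was -0.57 with at least 3 markers and -0.71 without cells of *Ace* and *Nr4a1* only, *Sftpc* in WT was 1.58, 0.077 and 0.53 with the stricter classical gate, limits as UMIs and no *Sftpc*-rich cells, *S100g* in WT 1.55 and *Spp1* in KO 0.12 with the stricter classical gate, and *Scgb1a1* in KO 0.036 with limits as UMIs. Depth limits the KO values: 41 cells with 225755 UMIs put the floor of 3 counts at 13.3 CPM, against 1.45 CPM in WT.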

Other observations

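Nuclear-retained RNA was somewhat higher in nonclassical than in classical monocytes of the WT library. *Malat1*, a long non-coding RNA kept in the nucleus, was at 8973 CPM against 5853 CPM (log2 ratio 0.62), and in KO at 10277 CPM against 11703 CPM. By sex-linked RNA, 80 of the 590 WT nonclassical monocytes held UMIs of *Xist* and of no Y-linked gene, 229 of Y-linked genes alone, 15 of both and 266 of neither. In KO the 41 cells fell into 19, 5, 2 and 15 in the same order, where the study's methods describe male mice. Of all kept cells, 4797 in WT held *Xist* alone and 8903 Y-linked genes alone, against 7679 and 3010 in KO. The libraries thus differed in sex-linked RNA, and its part in the KO over WT ratios was not tested.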
